A study of Oryza sativa with 2 samples.

Results

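An array of 38 loci that yield small RNA lies on the minus strand of rice chromosome 3, from 31172423 to 31182643 in the coordinates of the deposited lists. The build behind those coordinates is not stated in the labels or the lists used here. The 38 were chosen by position and strand alone, from 1349 loci in all, and they carry the authors' names JNnc_loci0402 to JNnc_loci0439. The study surveyed RNA of 50 to 500 nt in Oryza sativa by 454 sequencing of cDNA that had not been amplified, with 1 library at each of 2 stages. The stage 2 library came from anther, pistil and grouting embryo (as the labels spell it), and the stage 1 library from coleoptiles, radicals, shoot and tillering leaves. Whether each stage pools its tissues in 1 extract, and in what proportions, is not stated. The lists hold 117798 reads at 1163 loci in stage 2 and 80651 reads at 838 loci in stage 1. With 1 library a stage there is no replicate error: each 95% interval covers counting error alone, no p-value is given, and every comparison is between 2 libraries and not between 2 kinds of tissue.

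RNAs in this size range include the small nucleolar RNAs (snoRNAs), which guide ribose methylation and pseudouridylation of ribosomal and spliceosomal RNAs, as well as spliceosomal RNAs and other non-coding RNAs. In plants, snoRNA genes commonly sit side by side in clusters that are transcribed as 1 precursor, from which the single snoRNAs are then cut, so that neighbours share a promoter. The deposited lists give the loci no RNA class, so the roles of single members are not stated here.

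The array is a tandem repeat. Ordered by coordinate, 36 of the 38 loci fell into 5 copies of 1 unit with 9 positions, named A to I here, and the last 2 loci, JNnc_loci0438 (84 nt) and JNnc_loci0439 (78 nt), follow the fifth copy. The RNAs are on the minus strand, so they read from I towards A. Positions were assigned from start coordinates and lengths only, without use of the read counts. They are distances, with a tolerance of 10 nt, from the start of the 152-nt locus that occurs once in each copy (position C). Start means the lower coordinate throughout, which is where a minus-strand RNA ends. Successive C loci, JNnc_loci0403, JNnc_loci0409, JNnc_loci0416, JNnc_loci0424 and JNnc_loci0432, started 2098, 2098, 2098 and 2121 nt apart. The other positions kept nearly the same distances: 2091 to 2098 nt between copies 1 and 2, 2098 to 2099 nt between copies 2 and 3, 2096 to 2100 nt between copies 3 and 4, and 2118 to 2121 nt between copies 4 and 5.

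Within a copy the core C, D, E, F and H was listed 5 times out of 5. Position D, of 180 or 182 nt, began 211 nt after the start of C in every copy. The gap was 59 nt between C and D, 66 nt between D and E and 81 nt between E and F, identical in all 5 copies. Position E was 77 nt long in each copy, F was 89 or 90 nt, and H was 88 to 90 nt. The remaining positions were listed in part of the copies: A (122 nt) in copies 3, 4 and 5, B (114 or 121 nt) in copies 1, 2 and 4, G (92 nt) in copies 4 and 5, and I (115 nt) in copies 2, 3 and 4. Copy 4 is the one with all 9 positions listed, JNnc_loci0422 to JNnc_loci0430.

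Places without a listed locus kept their room. Of 45 places in 5 copies of 9 positions, 36 held a locus and 9 did not. From the end of F to the start of H there were 213 and 212 nt in copies 4 and 5, where G was listed between them, and 214, 217 and 218 nt in copies 1, 2 and 3, where it was not. From the end of A to the start of C there were 243 nt in copy 4, which has B in between, and also 243 nt in copies 3 and 5, which do not. No locus in either list had fewer than 2 reads summed over the libraries, and nothing more is known of how loci came to be listed, so a missing entry does not show that no RNA came from the place.

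**Figure D1:**
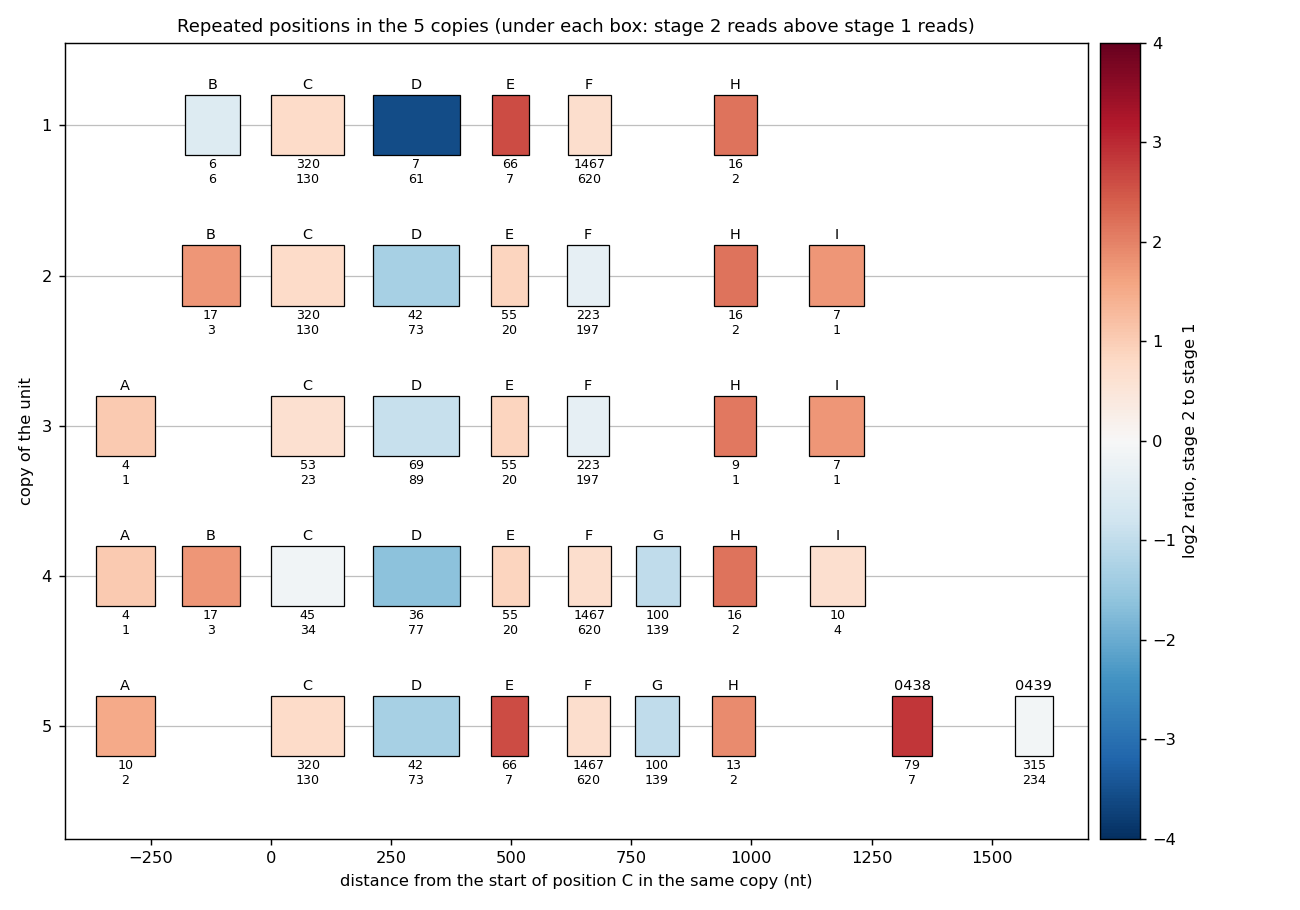
Each row is 1 copy of the unit and each box 1 locus, drawn to scale against the distance in nt from the start of position C in that copy; colour is the log2 ratio of stage 2 to stage 1 after adding 0.5 reads, and the numbers under a box are its stage 2 reads (upper) and stage 1 reads (lower). The boxes line up from copy to copy, D is blue (lower in stage 2) in all 5 rows, and G, between F and H, is listed in copies 4 and 5.

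Many loci at the same position had not only equal length but equal counts in both libraries, which bears on every total. This was so for 26 of the 38 loci, in 11 groups, and each group stayed within 1 position. A further 12 loci had counts of their own, so the array holds 23 distinct pairs of counts. No locus elsewhere in the lists matched a member in length and both counts. Among loci whose reads summed to 20 or more, 19 of 26 in the array had such a partner on the same strand within the width of the array. The share was 4.35% over all 483 such loci, and outside the array it was 2 of 457 (0.438%). The 16 clusters of 5 or more loci outside the array (neighbours at most 500 nt apart on 1 strand) held no such pair. Partners of another length, farther apart, or on another strand or chromosome were not counted in these shares. Outside the array, JNnc_loci0884, JNnc_loci0885, JNnc_loci0886 and JNnc_loci0887 had the same log2 ratio, -0.9813. The shares thus do not show that equal counts as such are particular to the array. The sources used here do not say how reads that match several copies were counted; whether equal counts are the same reads entered at each copy was not tested, and values below are therefore also given with each group entered once. That step does not remove reads that loci of unequal counts may share, which was not tested either.

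The groups did not divide the copies in 1 way. Copies 1 and 5, at opposite ends, had equal counts at C, E and F, while copies 2 and 3 did at E, F and I and copies 2 and 4 at B, E and H. Copies 1 and 3 shared 5 positions and copies 3 and 5 shared 6, with equal counts at none of them. Every other pair of copies had equal counts at 2 positions.

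The array held 7144 reads in stage 2 and 3698 in stage 1, a share of 6.06% in stage 2 (exact Clopper-Pearson interval 5.93 to 6.20) and of 4.59% in stage 1 (4.44 to 4.73). All 38 members were listed in both libraries, as were 48.3% of all loci. With each equal group entered once the array held 2969 reads (2.52%) in stage 2 and 1733 (2.15%) in stage 1. The ratio of reads per 1e6 listed reads (RPM), stage 2 to stage 1, was then 1.17 (1.11 to 1.25). The median ratio over the 483 loci with at least 20 reads was 1.39, a shift of 0.47 on the log2 scale, and relative to that median the array entered once was at 0.845 (0.796 to 0.897). The direction of the total thus depended on how the libraries were scaled. It depended also on a single group, since without the F loci of 1467 and 620 reads the ratio was 0.924 (0.854 to 0.999) by the sum of reads. Differences among positions within the array, given next, do not depend on library scaling where they are ratios of 1 locus to another.

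Position D was the one core position lower in stage 2 in every copy. JNnc_loci0404 in copy 1 had 7 reads in stage 2 and 61 in stage 1. JNnc_loci0410 in copy 2 and JNnc_loci0433 in copy 5 each had 42 reads in stage 2 and 73 in stage 1. JNnc_loci0417 in copy 3 had 69 and JNnc_loci0425 in copy 4 had 36 reads in stage 2, against 89 and 77 in stage 1. Stage 1 counts were thus close together at D, with the highest 1.46 times the lowest, while stage 2 counts spread 9.86-fold. The ratio of RPM was 0.0786 (0.0303 to 0.172) for JNnc_loci0404, 0.320 (0.209 to 0.481) for JNnc_loci0425, 0.394 (0.263 to 0.584) for the pair with equal counts and 0.531 (0.382 to 0.735) for JNnc_loci0417. All 4 intervals lay below 1, and relative to the median locus the highest of these ratios was 0.382 (0.275 to 0.530). By length, JNnc_loci0404 and JNnc_loci0425 have 182 nt and the other 3 loci 180 nt. The ratios of the 180-nt entries were 1.23 (0.686 to 2.21) and 1.66 times (0.972 to 2.85) that of JNnc_loci0425, so a difference by length beyond JNnc_loci0404 was not detectable at this depth.

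Position E, the next locus along and 66 nt from D, was higher in stage 2. JNnc_loci0405 (copy 1) and JNnc_loci0434 (copy 5) each had 66 reads in stage 2 and 7 in stage 1, a ratio of 6.46 (2.96 to 16.7). JNnc_loci0411, JNnc_loci0418 and JNnc_loci0426 (copies 2, 3 and 4) each had 55 reads in stage 2 and 20 in stage 1, a ratio of 1.88 (1.11 to 3.32). Here it was the stage 2 counts that lay close together, 1.20-fold apart, and the stage 1 counts that differed 2.86-fold. Relative to the median locus the first group was at 4.65 (2.14 to 12.0), and the second, at 1.36 (0.800 to 2.39), had an interval that covered 1.

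Neighbours D and E therefore differed in stage balance within each copy. The stage 2 to stage 1 ratio of E was 82.2 times that of D in copy 1 (exact conditional interval 24.6 to 290), 4.78 times in copy 2 (2.42 to 9.56), 3.55 in copy 3 (1.88 to 6.83), 5.88 in copy 4 (2.94 to 11.9) and 16.4 in copy 5 (6.61 to 45.5). On the other side of D, the ratio of C was 21.5 times that of D in copy 1 (9.41 to 56.7), 2.97 times in copy 3 (1.60 to 5.58) and 2.83 times in copy 4 (1.50 to 5.37). In copies 2 and 5, which have the same counts, it was 4.28 times (2.72 to 6.75). Each of these intervals lies above 1, and none depends on the library totals; copies that share counts are not separate observations.

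With every locus counted, position F carried 67.8% of the reads of the array in stage 2 and 61.0% in stage 1. With equal groups entered once, F held 1690 of 2969 reads in stage 2 and 817 of 1733 in stage 1. It was then most of the reads in stage 2 but not in stage 1. Position F came in a strong and a weaker form. JNnc_loci0406, JNnc_loci0427 and JNnc_loci0435 (90 nt; copies 1, 4 and 5) each had 1467 reads in stage 2 and 620 in stage 1. JNnc_loci0412 and JNnc_loci0419 (89 nt; copies 2 and 3) each had 223 reads in stage 2 and 197 in stage 1. The ratio of RPM was 1.62 (1.47 to 1.78) for the 90-nt form and 0.775 (0.637 to 0.944) for the 89-nt form, so they lay on opposite sides of 1. The ratio of the 90-nt form was 2.09 times that of the 89-nt form (1.68 to 2.60). Relative to the median locus they were at 1.17 (1.06 to 1.28) and 0.558 (0.459 to 0.680), again on opposite sides.

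Position G, 52 nt beyond F, was lower in stage 2. JNnc_loci0428 and JNnc_loci0436 each had 100 reads in stage 2 and 139 in stage 1, a ratio of 0.493 (0.377 to 0.642). In the same 2 copies the ratio of F was 3.29 times that of G (2.48 to 4.37). Relative to the median locus G was at 0.355 (0.272 to 0.462).

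Position C differed more in listed counts than in balance. JNnc_loci0403, JNnc_loci0409 and JNnc_loci0432 (copies 1, 2 and 5) each had 320 reads in stage 2 and 130 in stage 1, a ratio of 1.69 (1.37 to 2.08). JNnc_loci0416 (copy 3) had 53 reads in stage 2 and 23 in stage 1, at 1.58 (0.950 to 2.70), and JNnc_loci0424 (copy 4) had 45 and 34, at 0.906 (0.568 to 1.46). Counts thus differed 7.11-fold in stage 2 and 5.65-fold in stage 1 between loci of equal length. The highest counts are shared by 3 loci and the others are not. If shared counts are the same reads, which was not tested, these folds overstate the difference per copy. The ratio of the strong form was 1.86 times that of JNnc_loci0424 (1.10 to 3.12) and 1.07 times that of JNnc_loci0416 (0.599 to 1.86). Relative to the median locus the intervals of all 3 covered 1, with the strong form at 1.21 (0.987 to 1.50).

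The 2 loci after the fifth copy differed from one another. JNnc_loci0438 (31182310 to 31182393) gave 79 reads in stage 2 against 7 in stage 1, a ratio of 7.73 (3.58 to 19.8), the highest among members with at least 20 reads. JNnc_loci0439 (31182566 to 31182643), 172 nt further on, gave 315 reads in stage 2 against 234 in stage 1, at 0.922 (0.776 to 1.10). Relative to the median locus they were at 5.57 (2.58 to 14.3) and 0.664 (0.559 to 0.790).

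Positions A, B, H and I were weakly covered. Their reads ran from 4 to 17 in stage 2 and from 1 to 6 in stage 1. At H, JNnc_loci0407, JNnc_loci0413 and JNnc_loci0429 each had 16 reads in stage 2 and 2 in stage 1, JNnc_loci0420 had 9 and 1, and JNnc_loci0437 had 13 and 2. Entered once, H held 38 reads in stage 2 and 5 in stage 1, a ratio of 5.20 (2.04 to 16.9), which was 3.75 (1.47 to 12.2) relative to the median locus. These intervals take the reads of its 3 entries as separate, which was not tested. Relative to the median locus each entry alone had an interval that covered 1 (0.928 to 35.4, 0.615 to 195 and 0.726 to 29.3). At B the 121-nt loci JNnc_loci0408 and JNnc_loci0423 had 17 reads in stage 2 and 3 in stage 1, at 3.88 (1.12 to 20.7), and the 114-nt JNnc_loci0402 had 6 in each, at 0.685 (0.183 to 2.56). The 121-nt form was at 2.80 relative to the median locus, with an interval (0.809 to 14.9) that covers 1. At A, JNnc_loci0415 and JNnc_loci0422 had 4 reads in stage 2 and 1 in stage 1, and JNnc_loci0431 had 10 and 2. At I, JNnc_loci0414 and JNnc_loci0421 had 7 reads in stage 2 and 1 in stage 1, and JNnc_loci0430 had 10 and 4. The intervals of A, B and I entered once, 0.892 to 17.3, 0.780 to 4.30 and 0.824 to 8.07, covered 1, so a difference was not detectable at this depth. The 12 members with under 20 reads, entered as 8 distinct pairs of counts, held 75 reads in stage 2 and 19 in stage 1, at 2.70 (1.62 to 4.74). All 866 loci of that depth in the lists were at 1.72.

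**Figure D2:**
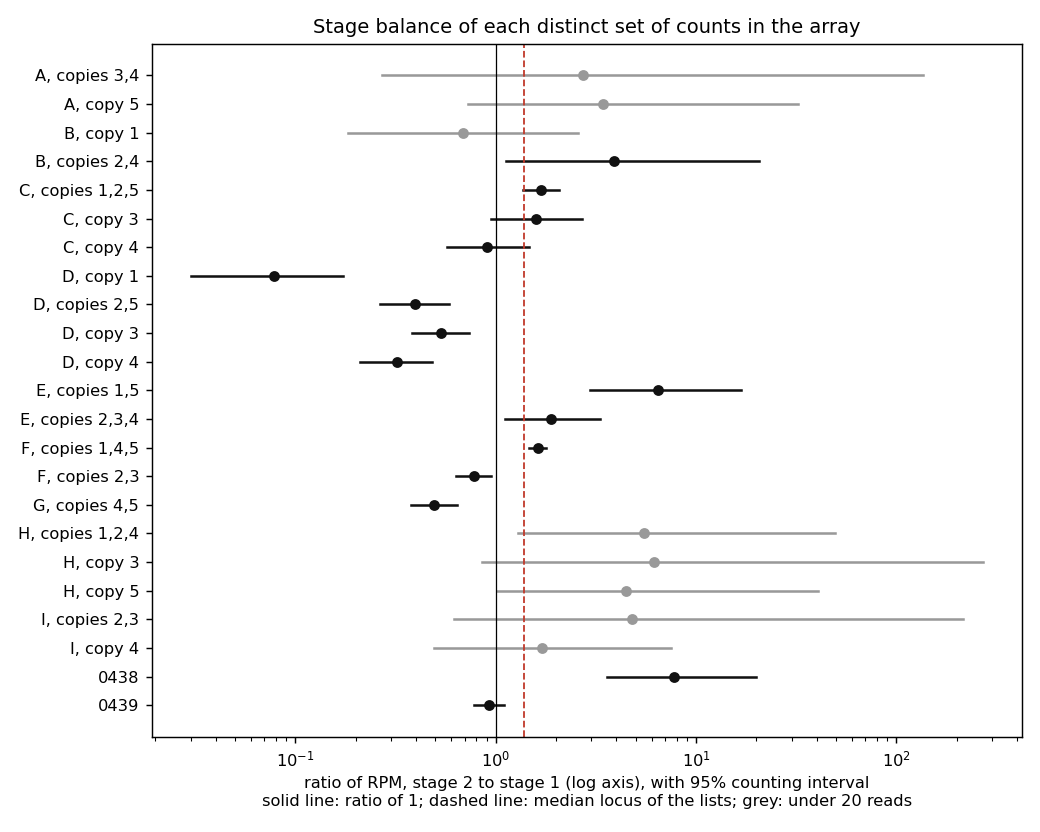
The ratio of RPM, stage 2 to stage 1, on a log axis for each of the 23 distinct pairs of counts, with its 95% counting interval; the solid line is a ratio of 1, the dashed line the median locus at 1.39, and grey marks members with under 20 reads. The 4 entries of D and that of G lie below 1, the 2 entries of E above 1, and the 2 entries of F on opposite sides.

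Set beside the lists as a whole, members lay on both sides of the centre. Among the 26 members of 20 or more reads, 5 had a ratio of 2 or more (2 at B, 2 at E, and JNnc_loci0438) and 6 a ratio of 0.5 or less (4 at D, 2 at G). Over all 483 loci of that depth, the shares past 2-fold were 32.9% upwards and 11.6% downwards. The interval lay above 1 for 14 members and below 1 for 9, beside 48.4% and 22.8% of all loci. Scaled to the median locus, 5 members were past 2-fold upwards and 7 downwards, against 18.2% and 22.2% of all loci. On that scale the interval lay above 1 for 6 members and below 1 for 10, against 30.4% and 34.6%. Entered once, 3 of 15 distinct pairs of counts were past 2-fold upwards and 4 downwards, by the sum of reads. Of these 15, the interval lay above 1 for 6 and below 1 for 6. Scaled to the median locus, 3 of the 15 were past 2-fold upwards and 5 downwards. The interval then lay above 1 for 3 and below 1 for 7. The median log2 ratio was 0.70 over the 26 members, -0.12 with groups entered once, and 0.47 over all loci.

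The SD of the log2 ratio was 1.47 over the 26 members, 1.36 over the 457 loci outside the array and 1.05 over 79 loci in the other clusters of 5 or more. With equal groups entered once, the SD was 1.68 over the 15 distinct pairs of counts in the array. From its lowest to its highest member the array spanned 6.44 on the log2 scale. The 16 other clusters spanned between 0.82 and 4.28, with a median of 2.45, but none of them had more than 9 loci, and a range grows with the number of loci. By the same rule of 500 nt the array itself formed 3 clusters, of 6, 23 and 9 loci. The first, copy 1, with 4 loci of at least 20 reads, spanned 6.18 by itself, through the neighbours JNnc_loci0404 and JNnc_loci0405. The clusters of 23 and 9 loci had spans inside the range of the 16 outside the array. The wider span of the array thus rested on copy 1 and on taking all copies together. This comparison is a description and was not tested.

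**Figure D3:**
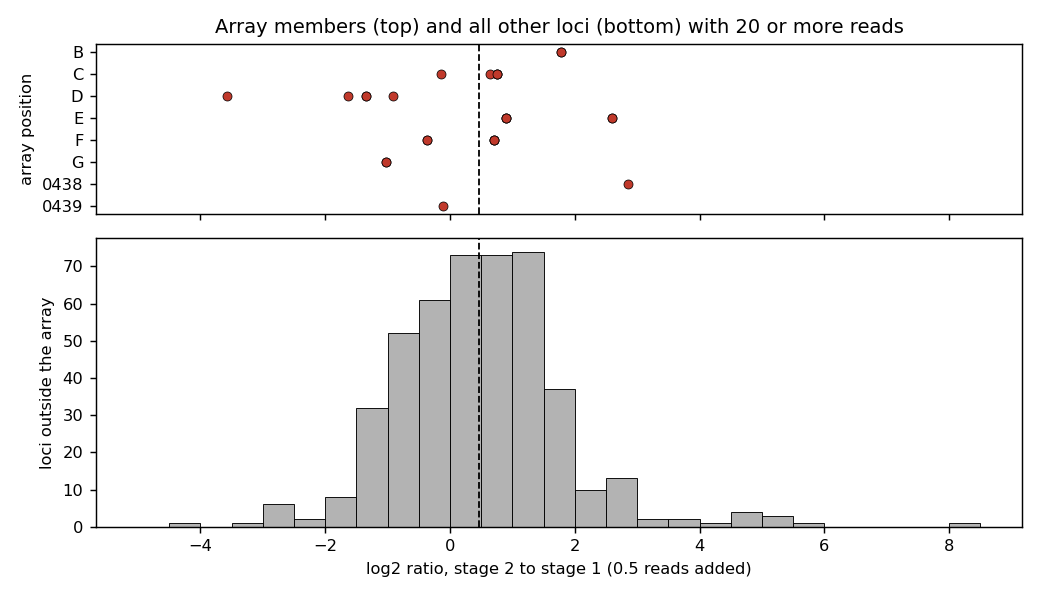
The upper panel shows the log2 ratio, stage 2 to stage 1 with 0.5 reads added, of the 26 members with at least 20 reads by position (members with equal counts overlie one another), and the lower panel the number of loci outside the array in bins of that ratio; the dashed line is the median of all 483 loci, 0.47. Members of D and G lie to the left of the line and members of B and E to the right.

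Differences between copies at 1 position were examined over all 17 pairs of distinct counts that share a position. The interval of the ratio of ratios excluded 1 in 6 pairs, all among the 11 pairs in which both entries had at least 20 reads; the intervals were not widened for the number of pairs. The 6 were JNnc_loci0404 against each of the other 3 entries of D, the 2 entries of E (3.43, 1.26 to 10.3), the 2 entries of F, and the strong form of C against JNnc_loci0424. At D the other 3 entries, at 4.07 to 6.76 times the ratio of JNnc_loci0404, did not differ from one another beyond counting error, with intervals for their pairs between 0.686 and 2.85. The intervals of all pairs take the reads of both entries as separate. Whether entries of unequal counts share part of their reads was not tested.

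Summed by copy, the balance followed which form of F a copy held, but copies with the same form hold the same F counts. The counts of 1467 and 620 reads enter copies 1, 4 and 5, and those of 223 and 197 enter copies 2 and 3. Likeness among copies with 1 form is thus in part built in, and the copy sums are not separate observations. Copies 1, 4 and 5, with the 90-nt form, had 1882, 1750 and 2018 reads in stage 2 and 826, 900 and 973 in stage 1, at ratios of 1.56 (1.44 to 1.69), 1.33 (1.23 to 1.44) and 1.42 (1.31 to 1.53). Copies 2 and 3, with the 89-nt form, had 680 and 420 reads in stage 2 and 426 and 332 in stage 1, at 1.09 (0.967 to 1.24) and 0.866 (lower bound 0.748, upper bound just above 1). Without F that order was gone. Copies 1 and 2 were then at 1.38 (1.16 to 1.64) and 1.37 (1.16 to 1.61), copies 3 and 5 at 0.999 (0.799 to 1.25) and 1.07 (0.933 to 1.22), and copy 4 at 0.692 (0.585 to 0.819). Relative to the median locus, and with F, copies 1 and 5 were at 1.12 and 1.02 and the other 3 below 1. On that scale and without F all 5 copies were below 1, at 0.994, 0.985, 0.720, 0.499 and 0.770 in the order of the copies, so the direction given above for copies 1 and 2 rests on the scaling by the sum of reads.

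Levels were compared between positions per length, as RPM per 100 nt. Shared counts were taken in full at each locus, and the order could change if they were divided among copies. The 90-nt form of F was highest in both libraries, at 13837 in stage 2 and 8542 in stage 1, followed by JNnc_loci0439 at 3428 and 3720 and the 89-nt form of F at 2127 and 2745. The strong form of C, at 1787 in stage 2 and 1060 in stage 1, and G, at 923 and 1873, came next, in that order in stage 2 and in the reverse order in stage 1. E lay at 606 and 728 in stage 2 and at 322 and 113 in stage 1. D lay between 32.7 and 325 in stage 2 and between 416 and 613 in stage 1. Of the 23 distinct entries, JNnc_loci0404 was the ninth by level in stage 1, at 416, and had only JNnc_loci0415 below it in stage 2, at 32.7. All entries of A, B, H and I were at or under 151 RPM per 100 nt in stage 2 and 65.3 in stage 1.

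**Figure D4:**
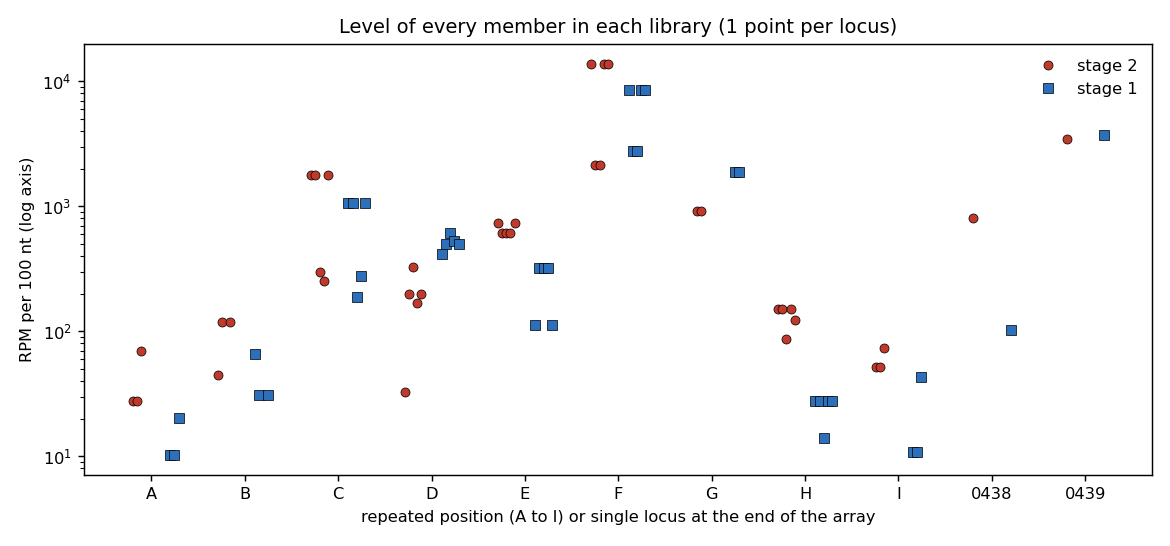
RPM per 100 nt on a log axis for every member, by position, with stage 2 as circles on the left and stage 1 as squares on the right of each position; points are single loci, shifted sideways by copy. The D squares bunch between 416 and 613 while its circles run from 32.7 to 325. The 90-nt form of F stands highest in both libraries.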

How the data were processed

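The authors deposited 1 list of positions per library, with a whole number per locus that is read here as the count of reads, not normalized, because the numbers start at 1 and sum to different totals (117798 in stage 2, 80651 in stage 1). Per the labels' protocols, RNA of 50 to 500 nt was ligated to adaptors at both ends and sequenced without amplification. The aligner, the genome build, the rule for a locus and the handling of reads with several matches are not stated in the labels or lists used here. A locus absent from 1 list was given 0 reads there. Starts were raised by 1 on the assumption of BED positions.

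RPM used the sum of each list, and 1 read is 8.49 RPM in stage 2 and 12.4 RPM in stage 1. Ratios have exact conditional binomial 95% intervals and ratios of ratios exact conditional odds-ratio intervals (scipy 1.17.1, Python 3.11.15). Reads were treated as independent molecules, and entries of unequal counts as holding different reads. Log2 ratios had 0.5 reads added, and medians and counts used loci with at least 20 reads. Alternatives covered scaling to the median locus, read minima, groups entered once and cluster gaps. The interval method and the assignment of positions were checked on simulated counts and an artificial array. All 38 members are named or counted. The members, groups and tests were chosen with earlier results of these data known; the positions A to I, the pairs within positions and the sums by copy were added after the counts were seen. No genome of the files' build was used here, so no sequence is shown.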

Additional observations from a re-analysis of the deposited data

How the results depend on the processing

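Scaling to the median locus reversed the ratio of the array to 0.953 over all 38 members and to 0.845 with equal groups entered once, and moved the members whose interval lies above 1 from 14 to 6. Without the F loci of 1467 and 620 reads the ratio of all members was 1.02, with an interval that covered 1, and that of groups entered once reversed to 0.924. The count of members at least 2-fold higher, 5 as reported, was 11 at a minimum of 10 reads, 3 at a minimum of 50 reads, and 3 with equal groups entered once, since fewer or more loci enter. The median log2 ratio reversed to -0.12 with equal groups entered once. Members at most 500 nt apart formed 3 clusters, which became 11 at 200 nt and 1 at 1000 nt; the gap between I and A, 498 nt in copies 2 to 3 and 3 to 4 but 519 nt in copies 4 to 5, straddles that limit. Another 15 recomputed summaries kept their direction and side of 1, or stayed within 1.5 times. Of the 23 single ratios, 17 kept their side of 1 and their call under scaling to the median locus, 5 had an interval that then covered 1, and 1 gained an interval below 1. No paired analysis was possible because only 1 library was made per stage, and no library could be left out. Depth limits A, B, H and I, where a single read changes a count by up to its whole size in stage 1.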

Other observations

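A RefSeq gene table of another rice assembly, ASM3414082v1, was searched for runs of neighbouring snoRNA genes on chromosome 3 (gaps of at most 1000 nt). Of its 111 snoRNA genes on that chromosome, the longest run held 45 and the next 7. Placed by the same procedure as the loci, 42 of the 45 fell into 5 copies of 9 positions in the order A to I. The run holds 5 genes of 151 nt whose 4 start-to-start distances equal those of the C loci, and genes at D begin 211 nt after them, as in the array. The table has a gene at 7 of the 9 places where the lists have no locus, and at G in 5 copies where the lists have it in 2. Conversely, 1 listed locus, JNnc_loci0402 at B of copy 1, has no gene placed at its position. The 3 genes not placed are the first and the last 2 of the run. Gene lengths differed from those of the loci at most positions. Genes were longer at D (182 or 184 nt against 180 or 182), E (82 against 77), F (96 against 89 or 90), G (98 against 92), H (96 against 88 to 90) and I (119 against 115). They were shorter at A (121 against 122) and C (151 against 152), and at B they had 121 nt against 114 or 121. The comparison rests on order and spacing in a different build and not on sequence, so no locus was given a gene name or an RNA class from it.

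The nearest loci outside the array lie on the plus strand, 14603 and 14851 nt beyond its end. JNnc_loci0440 (77 nt) had 49 reads in stage 2 and 58 in stage 1, a ratio of 0.578 (0.387 to 0.861), and JNnc_loci0441 (85 nt) had 169 and 20, at 5.79 (3.63 to 9.71). On the other side the nearest listed locus, JNnc_loci0401, was 308608 nt away.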
